A study of Mus musculus with 30 samples.

Results

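Cathepsins and calpains are proteases that act outside the proteasome in skeletal muscle, and the genes of 6 cathepsins (CTSL, CTSB, CTSD, CTSZ, CTSK and CTSS), 3 calpains (CAPN1, CAPN2 and CAPN3) and the calpain inhibitor calpastatin (CAST) were followed here. They were taken by gene symbol, upper or lower case, and each of the 10 symbols matched 1 row of the table of 21073 genes. Expression was measured by RNA-Seq in the extensor digitorum longus (EDL), a fast muscle of the lower hind limb, of 30 female SJL/J mice of wild-type genotype. Unimmunized mice (Ctrl), mice immunized with ovalbumin in complete Freund's adjuvant (OVA) and mice with experimental autoimmune encephalomyelitis (EAE), induced with a peptide of the myelin proteolipid protein in the same adjuvant, were sampled on day 14, at the peak of disease, and on day 40, in remission, with 5 mice in each of the 6 groups. OVA and EAE mice thus shared the adjuvant, which Ctrl mice did not receive, and every mouse was sampled once, so that the days were compared between different mice. All groups shared the SJL/J background, a strain known to carry a splice-site mutation in the gene of the membrane repair protein dysferlin. The age of the mice is not given in the sources used here.

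Lysosomal cathepsins degrade proteins that reach the lysosome by autophagy or endocytosis, and cystatins inhibit those of the cysteine class. Calpains are cytosolic proteases activated by calcium that cut a limited set of proteins, many of them in the sarcomere and under the muscle membrane, and calpastatin inhibits the ubiquitous calpains but not the muscle calpain. Cathepsin L is known in muscle as one of the genes induced in wasting, cathepsin S as a protease of antigen-presenting cells and cathepsin K as a collagen-degrading enzyme of osteoclasts and fibroblasts.

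The deposited values were converted to RPKM, the reads of a gene scaled to its exon length and to the reads of the library, a level per length on which genes can be set beside one another. Between mice, RPKM also depends on the other RNA in the library, and some calls changed under other scalings, as given below. The reads assigned to genes were estimated from the smallest steps between values at 18200000 to 31700000 per mouse, and the deepest library was that of EAE replicate 3 of day 14. At these depths the lowest value of any of the 10 genes (CTSK in EAE mice of day 14) rested on about 140 reads. Genes that define fast fibres summed to 60108 to 128720 RPKM and those of slow fibres to 1259 to 3476 RPKM over the 30 mice. Whole muscle was sampled, so fewer cells of a type and less RNA per cell cannot be told apart in any value below.

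The promoters of CTSL and CTSD are shown because these 2 lysosomal genes had higher levels in EAE mice of day 14 and both hold CACGTG, the core of the CLEAR element that TFEB, a transcription factor of lysosomal genes, binds. CAPN2 is shown as the calpain that rose and CTSK as the gene that fell most against Ctrl mice. Each is a RefSeq promoter of build GRCm38.p6, from 250 bases before to 50 bases after the transcription start, in the direction of the gene. Capitals mark CACGTG in CTSL (chr13:64370471-64370770, minus strand) and CTSD (chr7:142387778-142388077, minus strand) and the CCAAT box of NF-Y in CAPN2 (chr1:182517561-182517860, minus strand), while CTSK (chr3:95498960-95499259, plus strand) has no capitals.
CTSL: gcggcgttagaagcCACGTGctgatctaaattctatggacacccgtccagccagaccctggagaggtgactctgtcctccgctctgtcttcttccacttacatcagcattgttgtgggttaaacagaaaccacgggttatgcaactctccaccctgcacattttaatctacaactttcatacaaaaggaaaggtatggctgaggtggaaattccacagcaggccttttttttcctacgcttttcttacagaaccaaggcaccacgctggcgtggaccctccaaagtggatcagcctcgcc
CTSD: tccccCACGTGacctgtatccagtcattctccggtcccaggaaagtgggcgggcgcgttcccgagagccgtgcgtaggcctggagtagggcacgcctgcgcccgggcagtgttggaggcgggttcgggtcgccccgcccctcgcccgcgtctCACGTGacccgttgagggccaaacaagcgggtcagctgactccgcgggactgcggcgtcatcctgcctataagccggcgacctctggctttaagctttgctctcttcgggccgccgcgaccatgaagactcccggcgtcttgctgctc
CAPN2: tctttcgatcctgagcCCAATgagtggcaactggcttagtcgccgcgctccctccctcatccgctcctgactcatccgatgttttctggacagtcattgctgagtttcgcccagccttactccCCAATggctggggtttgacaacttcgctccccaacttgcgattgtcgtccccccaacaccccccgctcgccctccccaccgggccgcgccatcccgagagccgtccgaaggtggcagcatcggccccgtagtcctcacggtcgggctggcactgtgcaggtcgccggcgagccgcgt
CTSK: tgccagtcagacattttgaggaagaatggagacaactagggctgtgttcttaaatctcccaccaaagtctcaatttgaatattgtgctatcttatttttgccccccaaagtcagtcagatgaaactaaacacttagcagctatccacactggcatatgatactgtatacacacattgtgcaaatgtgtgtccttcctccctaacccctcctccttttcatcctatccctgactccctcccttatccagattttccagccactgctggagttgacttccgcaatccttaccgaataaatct
Promoters were given for 9 of the 10 genes (14 promoters, since CAST, CAPN1 and CAPN3 had several), and CTSB had no entry. CACGTG occurred once in CTSL, from position -236 relative to the start, and at 2 places in CTSD, from -245 and -98. No other promoter of the 10 genes held it, against 7.15% of all 32851 promoters of the same length. Each motif was searched on both strands, and no motif overlapped a different one in these promoters. CCAAT was found in CAPN2, CTSZ, CAST and CAPN1 (37.4% of all promoters), the GC box GGGCGG in CTSZ, CTSS, CTSD, CAST and CAPN1 (35.7%) and TATAAA in CTSS (13.6%). The FoxO site GTAAACA was found in none of the 14 (3.65% of all promoters). The windows of CTSK and CAPN3 held none of these 5 motifs. A match is a run of letters in this window and says nothing of binding.

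Cathepsin D had the highest level of the 10 genes in every group. In unimmunized mice of day 14 it was at 461 RPKM on average, followed by CTSB (128) and CTSL (124), and none of the mice overlapped between CTSD and CTSB or between CTSL and the next gene, CTSZ. The other 7 genes lay between 19.5 RPKM (CTSK) and 55.6 RPKM (CTSZ) on average, and each overlapped the next in order in these mice. In EAE mice of day 14, CTSL lay above CTSB without overlap, whereas CTSL and CTSB overlapped in each of the other groups. CAPN2, which lay below CTSZ, CTSS, CAPN1 and CAPN3 on average in Ctrl mice, lay above these genes in EAE mice of that day, and in each group of day 40 only CAPN2 and CTSK followed after CAST.

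**Figure D1:**
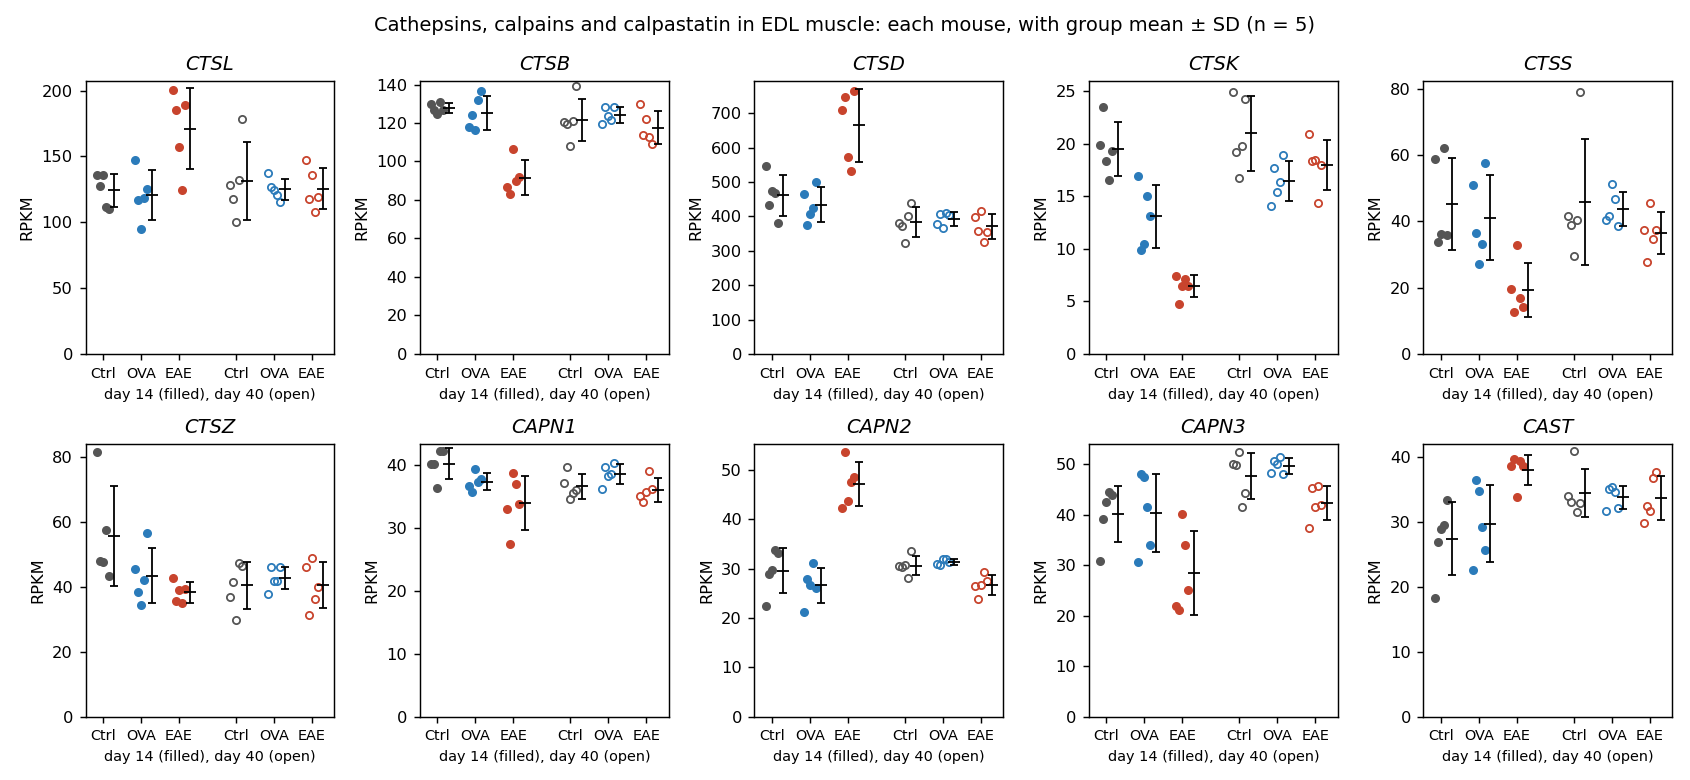
Level of each gene in RPKM (vertical axes, from 0) in the 30 mice, by treatment on day 14 (filled points) and day 40 (open points), with the mean and SD of each group of 5 mice beside the points. CTSK, CTSS and CTSB are lowest and CAPN2 and CTSD highest in the EAE mice of day 14, while the 3 treatments of day 40 lie close to one another.

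EAE and unimmunized mice of day 14 were compared to ask how the muscle at the peak of disease differed from that of untreated mice, and EAE and OVA mice to set the adjuvant aside. Differences were tested with limma on log2(RPKM + 0.1) over all genes whose mean exceeded 3 RPKM in either group compared, a filter that all 10 genes passed in each comparison. A gene was called where its adjusted p (Benjamini-Hochberg) was under 0.05 and it differed by more than 1.5-fold (0.585 on the log2 scale). Against Ctrl mice, CTSK and CTSS were called lower and CAPN2 was called higher. The call of 1 of 10 genes as higher and of 2 as lower stood beside 14.6% and 11.8% of the 8771 genes tested, so the share of calls was near that of all genes. By adjusted p alone, with no fold threshold, 4 of the 10 genes were higher (CTSL, CTSD, CAPN2 and CAST) and the other 6 lower, beside 28.8% and 19.0% of all genes. Against OVA mice, CTSD and CAPN2 were called higher and CTSK and CTSS lower, beside 11.0% and 9.28% of the 8674 genes tested. By adjusted p alone, 3 were higher and 4 lower against OVA mice, beside 23.8% and 15.3% of all genes. These comparisons share their EAE mice. All 5 EAE mice lay above all 5 Ctrl mice for 2 of the 10 genes (21.2% of all genes) and below them for 4 (11.0%), and against OVA mice they did so for 2 genes in each direction (18.0% and 8.20%).

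**Figure D2:**
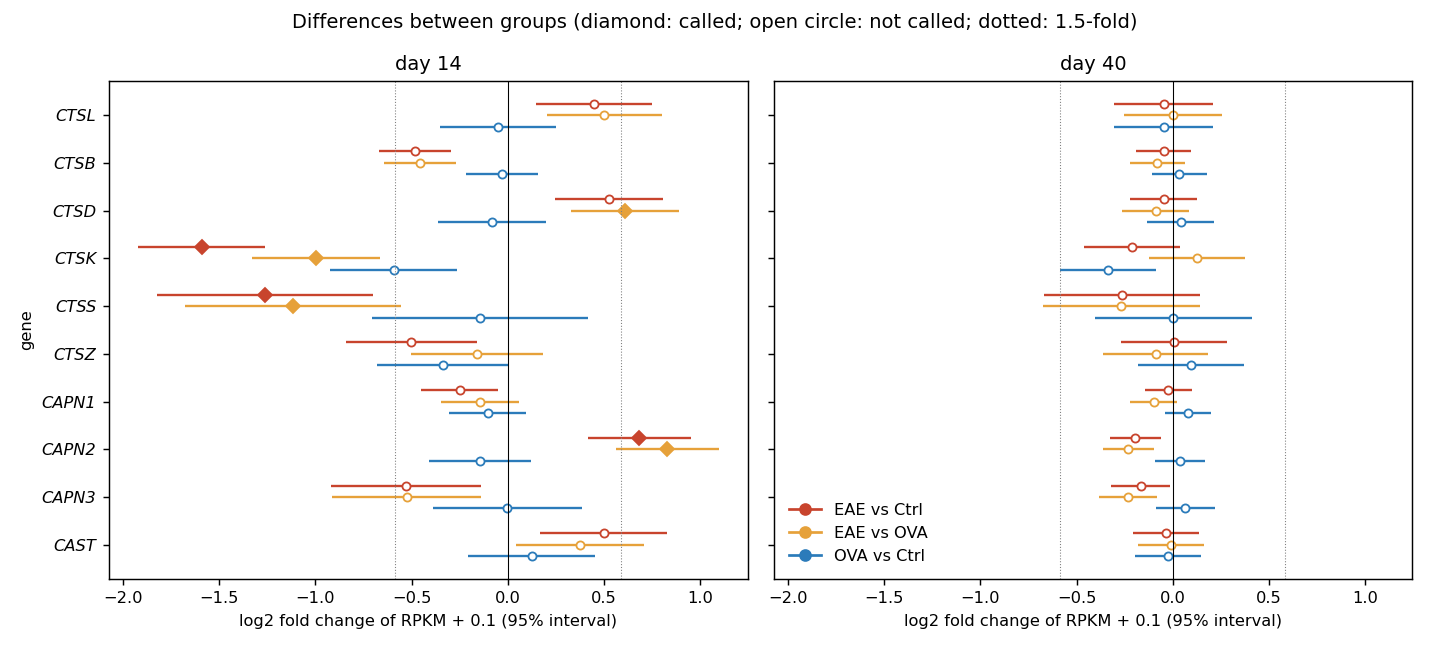
Log2 fold change of RPKM + 0.1 (horizontal axis) with its 95% interval from limma for the 10 genes on day 14 (left) and day 40 (right), for each pair of treatments. Diamonds are called genes and dotted lines mark a 1.5-fold change. On day 14 the calls are CTSK, CTSS and CAPN2 in both EAE comparisons and CTSD against OVA, and on day 40 there are none.

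CTSL encodes a lysosomal cysteine endopeptidase of most cells. Its RPKM was 136, 127, 136, 112 and 110.3 in the 5 Ctrl mice of day 14, 147, 117, 94.5, 118 and 126 in OVA mice and 200.3, 186, 157, 124 and 189 in EAE mice. The EAE mice were the highest except for replicate 4, which lay within the range of both other groups. The difference was 0.45 on the log2 scale against Ctrl (SE 0.14, limma adjusted p = 0.017) and 0.50 against OVA (SE 0.14, limma adjusted p = 0.0114), past the adjusted p but under the fold threshold. Without EAE replicate 4 it was called against OVA mice, at 0.61.

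CTSB encodes a lysosomal cysteine protease that can also trim peptides from their end. It was at 129.8, 127, 125, 131 and 127 RPKM in Ctrl mice, 118, 124, 116, 132 and 137 RPKM in OVA mice and 86.9, 83.0, 107, 89.6 and 91.9 RPKM in EAE mice of day 14. Every EAE mouse was below every mouse of the other groups, and replicate 3 was the nearest to them. The log2 fold change was -0.48 against Ctrl (95% interval -0.67 to -0.30, limma adjusted p = 0.00046) and -0.45 against OVA (95% interval -0.64 to -0.27, limma adjusted p = 0.00089), a separation of all mice by less than 1.5-fold. CTSL and CTSB differed in opposite directions, and the ratio of CTSL to CTSB within a mouse was 1.89 ± 0.433 in EAE mice (SD, n = 5) and 0.973 ± 0.106 in Ctrl mice. The lowest EAE mouse (1.39) was above the highest of the other 25 mice (1.29), a separation that follows from the levels of both genes and is no separate result.

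CTSD encodes the main aspartic protease of the lysosome. Its levels of 711, 748, 573, 531 and 764 RPKM in EAE mice compared with 548, 434, 474, 467 and 382 RPKM in Ctrl mice and 466, 375, 406, 424 and 502 RPKM in OVA mice. All EAE mice were above all OVA mice, while the lowest EAE mouse was below the highest Ctrl mouse. The log2 fold change was 0.61 against OVA (SE 0.13, limma adjusted p = 0.00221), which was called, and 0.52 against Ctrl (SE 0.13, limma adjusted p = 0.0047), which was under the fold threshold. The call against OVA was close to that threshold: it was lost without OVA replicate 2 or 3 or EAE replicate 1, 2 or 5 (log2 fold change 0.55 to 0.58) and under median-of-ratios scaling (0.56), and against Ctrl mice CTSD was called without Ctrl replicate 1 (0.59) or EAE replicate 4 (0.60). Cathepsin D made up 66.9 ± 2.89% of the summed RPKM of the 6 cathepsins in EAE mice (SD, n = 5), 55.2 ± 1.35% in Ctrl mice and 55.9 ± 1.98% in OVA mice.

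CTSZ encodes a lysosomal carboxypeptidase. It was at 81.5, 47.8, 47.8, 57.6 and 43.3 RPKM in Ctrl mice, 45.5, 38.5, 34.3, 42.2 and 56.6 RPKM in OVA mice and 42.8, 35.6, 38.9, 34.9 and 39.4 RPKM in EAE mice. The EAE mice were below all Ctrl mice, of which replicate 1 was far above the others, but were within the range of the OVA mice. The log2 fold change was -0.50 against Ctrl (limma adjusted p = 0.0184) and -0.16 against OVA (95% interval -0.50 to 0.18, limma adjusted p = 0.445). On day 40 the Ctrl mice were at 40.4 ± 7.23 RPKM (SD, n = 5), and they overlapped the EAE mice of day 14.

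CTSK had the largest difference of the 10 genes against Ctrl mice. It was at 19.9, 23.5, 18.3, 16.6 and 19.3 RPKM in Ctrl mice, 16.9, 9.86, 10.5, 15.0 and 13.1 RPKM in OVA mice and 7.42, 4.76, 6.45, 7.14 and 6.41 RPKM in EAE mice of day 14. The EAE mice did not overlap either group, and the OVA mice lay in between with 1 mouse inside the Ctrl range. CTSK fell by 1.59 on the log2 scale against Ctrl (SE 0.16, limma adjusted p = 2.91e-06) and by 1.00 against OVA (SE 0.16, limma adjusted p = 0.00015), and both calls were kept with any 1 of the 10 mice of a comparison left out.

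CTSS was at 58.7, 33.7, 36.0, 62.1 and 36.0 RPKM in Ctrl mice, 51.1, 36.3, 27.0, 33.3 and 57.7 RPKM in OVA mice and 19.7, 12.8, 32.8, 17.0 and 14.1 RPKM in EAE mice. The EAE mice were below all Ctrl mice, and EAE replicate 3 alone overlapped the OVA mice. The gene fell by 1.26 on the log2 scale against Ctrl (SE 0.27, limma adjusted p = 0.00134) and by 1.12 against OVA (SE 0.27, limma adjusted p = 0.00386). Both calls were kept with any 1 mouse left out. CTSK and CTSS together were 2.66 ± 1.06% of the summed cathepsin RPKM in EAE mice (SD, n = 5), against 7.75 ± 1.04% in Ctrl mice, while the sum of the 6 cathepsins itself was 992 ± 128 RPKM in EAE and 834 ± 93.3 RPKM in Ctrl mice, with overlapping mice.

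Most tested markers of fibroblasts and macrophages were also called lower in EAE mice of day 14, beside 11.8% (against Ctrl) and 9.28% (against OVA) of all genes. On day 14, 10 of 11 fibroblast markers were called lower against Ctrl and 9 of 11 against OVA, with COL1A1, a chain of collagen I, at 30.3 ± 11.5 RPKM in EAE mice and 432 ± 197 RPKM in Ctrl mice (SD, n = 5). The fibroblast markers summed to 366 to 589 RPKM in EAE mice, 861 to 1257 RPKM in OVA mice and 1092 to 2185 RPKM in Ctrl mice, without overlap between EAE mice and either group. Of 12 macrophage markers, 11 were tested and 7 were called lower against Ctrl and 8 against OVA, among them the complement genes C1QA, C1QB and C1QC, and their sums were 159 to 358 RPKM in EAE, 318 to 499 RPKM in OVA and 343 to 507 RPKM in Ctrl mice. No fibroblast or macrophage marker was at 0 in any mouse. EAE replicate 3, the highest EAE mouse for CTSB and CTSS, also had the highest macrophage sum of the EAE mice of day 14. Across the 30 mice, which share groups and in which the EAE mice of day 14 stand apart, the log2 level of CTSS had r = 0.93 with the macrophage sum and CTSB r = 0.90, and over the 25 mice without that group 0.83 and 0.79. CTSK had r = 0.85 with the fibroblast sum over all 30 mice and 0.40 over the 25, and -0.76 and -0.53 with the sum of neutrophil markers. CTSB also had r = 0.81 with the fibroblast sum over the 30 mice, and 0.19 over the 25. The macrophage sum was not particular to CTSS and CTSB. Over the 30 and the 25 mice CTSZ had r = 0.58 and 0.66 with it, and CTSD, which was higher in EAE mice, -0.41 and 0.70. The part of these cells in the levels of the cathepsins was not tested.

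**Figure D3:**
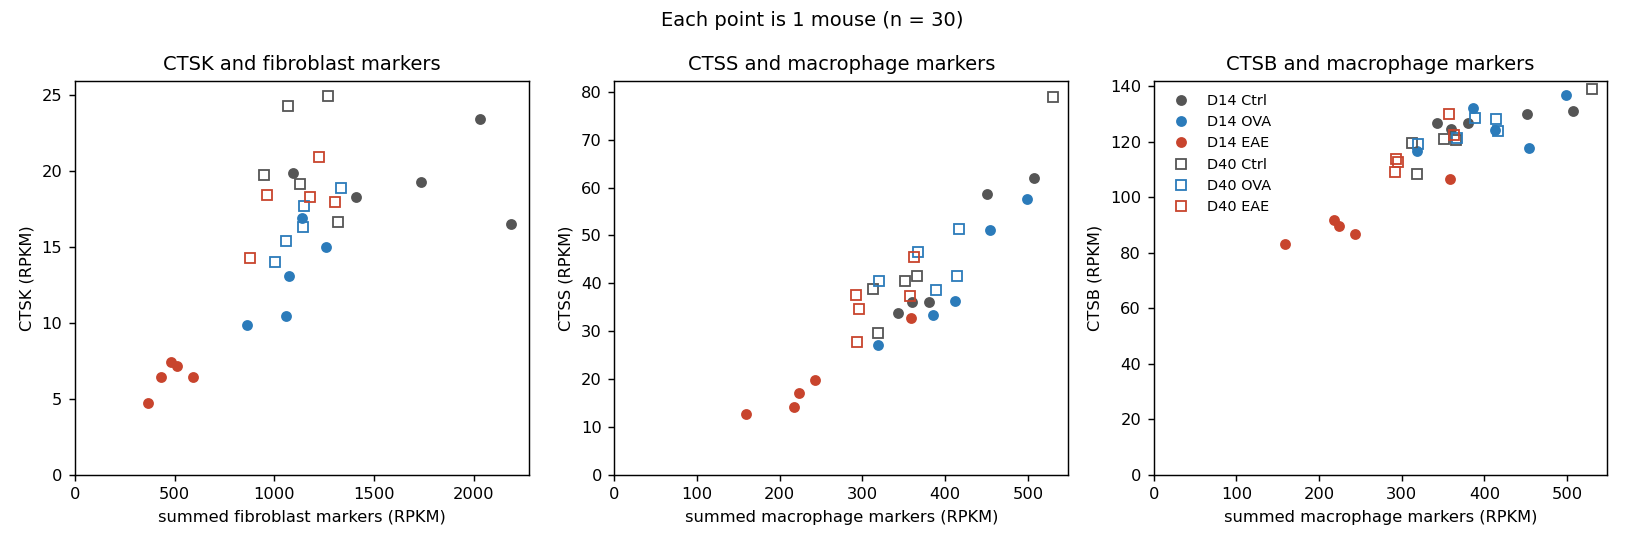
Level of CTSK against the summed fibroblast markers, and of CTSS and CTSB against the summed macrophage markers (RPKM, axes from 0), with 1 point for each of the 30 mice; colours are treatments, filled circles are day 14 and open squares day 40. The EAE mice of day 14 lie at the low end of the axes in each panel, except EAE replicate 3, which lies among the other mice for the macrophage markers.

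Markers of neutrophils, satellite cells and muscle fibres were examined in the same way. Neutrophil markers summed to 202 to 394 RPKM in EAE, 65.0 to 229.8 RPKM in OVA and 3.96 to 10.1 RPKM in Ctrl mice of day 14, where 4 of 12 markers were above the filter and all 4 were called higher in EAE than in Ctrl mice, with 7 of the 12 at 0 in at least 1 Ctrl mouse. Against OVA mice 1 of the 4 was called higher, S100A8, a subunit of calprotectin (2.31, limma adjusted p = 0.00014), which made up most of the mean EAE sum at 225 ± 101 RPKM (SD, n = 5). The other 3 had negative differences against OVA that were not called, S100A9 at -0.96, NGP at -0.86 and RETNLG at -1.05 (limma adjusted p = 0.0638 to 0.109), and the list median was -0.91. S100A9 was called lower with quantile normalization (-1.07) and NGP with a pseudocount of 1 (-0.70). Satellite cell markers summed to 43.5 to 123 RPKM in EAE against 24.8 to 35.5 RPKM in Ctrl mice, with MYOD1 and CDH15 called higher of 3 tested in both EAE comparisons. Most of the mean EAE sum was MYOD1, at 67.9 ± 28.2 RPKM (SD, n = 5), while the third tested marker was lower against OVA by adjusted p alone and CALCR was at 0 in some EAE mice. Of the fast fibre markers, 2 of 12 were called lower in EAE than in Ctrl mice (PVALB and TNNC2), and of the slow fibre markers 4 of 10 (MYL3, TNNC1, TPM3 and MYL2). Of all 8771 genes tested in that comparison, 14.6% were called higher and 11.8% lower, so the share of the fast fibre markers was near that of all genes.

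Of the 2 ubiquitous calpains, CAPN2 rose on day 14 and CAPN1 did not. CAPN2, the catalytic subunit of m-calpain, was at 22.3, 28.8, 29.6, 33.7 and 33.2 RPKM in Ctrl mice, 21.3, 27.9, 26.6, 31.1 and 26.2 RPKM in OVA mice and 42.3, 53.7, 43.8, 47.5 and 48.6 RPKM in EAE mice of day 14. All EAE mice were above all mice of both groups, and above all 15 mice of day 40. CAPN2 rose by 0.68 on the log2 scale against Ctrl (SE 0.13, limma adjusted p = 0.00049) and by 0.83 against OVA (SE 0.13, limma adjusted p = 0.00011). Both calls were kept with any 1 mouse left out, but under quantile normalization the change against Ctrl was 0.58, just below the fold threshold.

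CAPN1, the catalytic subunit of µ-calpain, was at 40.2, 40.3, 36.4, 42.2 and 42.4 RPKM in Ctrl mice, 36.8, 35.8, 39.4, 37.3 and 37.8 RPKM in OVA mice and 33.1, 27.5, 38.8, 37.0 and 33.8 RPKM in EAE mice. EAE replicates 3 and 4 were inside the range of both control groups and EAE replicate 2 was the lowest of the 15 mice. The log2 fold change was -0.25 against Ctrl (limma adjusted p = 0.0394) and -0.15 against OVA (95% interval -0.35 to 0.05, limma adjusted p = 0.234), and the adjusted p against Ctrl was above 0.05 in 7 of the 10 fits with 1 mouse left out (without Ctrl replicate 1, 2, 4 or 5 or EAE replicate 1, 2 or 5), reaching 0.119. The ratio of CAPN2 to CAPN1 within a mouse was 1.42 ± 0.318 in EAE mice (SD, n = 5), 0.733 ± 0.106 in Ctrl mice and 0.712 ± 0.0985 in OVA mice. It was above 1 in each EAE mouse of day 14 (lowest 1.13) and below 1 in each of the other 25 mice (highest 0.928). This ratio restates the levels of the 2 genes and is no separate result.

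CAPN3, the calpain of skeletal muscle that is anchored to titin, was at 30.9, 39.1, 42.6, 44.4 and 44.0 RPKM in Ctrl mice, 30.7, 48.0, 47.5, 41.6 and 34.0 RPKM in OVA mice and 22.0, 21.2, 40.1, 34.0 and 25.0 RPKM in EAE mice. EAE replicates 1, 2 and 5 were below every mouse of both groups, whereas replicates 3 and 4 were within their range. The log2 fold change was -0.53 against Ctrl (SE 0.18, limma adjusted p = 0.0262) and -0.53 against OVA (SE 0.18, limma adjusted p = 0.0322), under the fold threshold. This result depended on single mice: the adjusted p was above 0.05 in 6 of 10 fits in each comparison with 1 mouse left out (without Ctrl replicate 3, 4 or 5, OVA replicate 2, 3 or 4, or EAE replicate 1, 2 or 5, up to 0.0772 and 0.0929), and CAPN3 was called in 3 fits of each, without EAE replicate 3 (-0.67 and -0.66), EAE replicate 4 (-0.61 and -0.60), Ctrl replicate 1 (-0.62) or OVA replicate 1 (-0.62). The 3 calpains summed to 109.7 ± 10.7 RPKM in EAE and 110.0 ± 10.9 RPKM in Ctrl mice of day 14 (SD, n = 5).

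CAST, the gene of calpastatin, was at 18.2, 26.9, 28.9, 29.5 and 33.3 RPKM in Ctrl mice, 22.6, 36.4, 34.7, 29.2 and 25.7 RPKM in OVA mice and 38.6, 39.6, 33.9, 39.4 and 38.6 RPKM in EAE mice. The EAE mice were above all Ctrl mice, and 4 of the 5 were above all OVA mice. The log2 fold change was 0.50 against Ctrl (SE 0.16, limma adjusted p = 0.0161), under the fold threshold, and 0.37 against OVA (95% interval 0.04 to 0.70, limma adjusted p = 0.0679, or 0.0369 without OVA replicate 2). On day 40 the Ctrl mice were at 34.5 ± 3.70 RPKM (SD, n = 5), and they overlapped the EAE mice of day 14. The summed level of CAPN1 and CAPN2 divided by that of CAST was 2.14 ± 0.181 in EAE, 2.62 ± 0.475 in Ctrl and 2.21 ± 0.366 in OVA mice of day 14 (SD, n = 5 each), with overlapping mice. CAPNS1, the small subunit that both ubiquitous calpains need, was at 206 ± 18.5 RPKM in EAE, 148 ± 18.4 RPKM in Ctrl and 127 ± 18.8 RPKM in OVA mice. It was called higher against OVA (0.70, limma adjusted p = 0.00026) and passed the adjusted p against Ctrl (0.48, limma adjusted p = 0.00369).

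**Figure D4:**
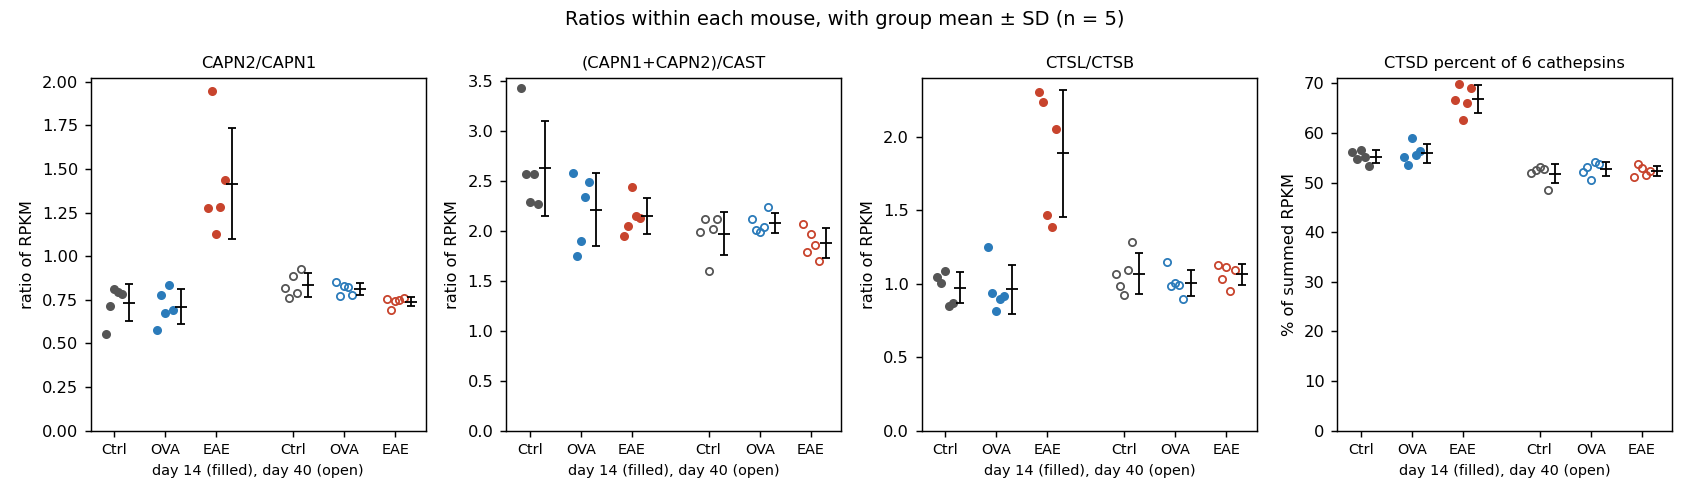
Ratios of RPKM within each mouse (vertical axes, from 0), by treatment on day 14 (filled) and day 40 (open), with the mean and SD of 5 mice. The ratios of CAPN2 to CAPN1 and of CTSL to CTSB and the share of CTSD among the 6 cathepsins are higher in each EAE mouse of day 14 than in every other mouse, while the ratio of the ubiquitous calpains to CAST overlaps between groups.

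The other genes of the pathways were taken from 7 lists with 93 genes, of which 71 were tested against Ctrl on day 14: 16 were called higher and 6 lower (11 and 4 of 70 against OVA). The lists held more higher than lower calls, as did all genes (14.6% and 11.8% against Ctrl, 11.0% and 9.28% against OVA). Of the 16 higher calls, 6 were calpain substrates. Among the other cathepsins and legumain, 6 of 9 were tested and 1 was called, CTSH, an aminopeptidase of the lysosome, which fell from 13.4 ± 1.65 to 5.28 ± 1.35 RPKM (SD, n = 5; log2 fold change -1.35, limma adjusted p = 6.14e-06) and by 1.09 against OVA. Of the cystatins and other inhibitors, 4 of 10 were tested. CST6, cystatin M/E, an inhibitor of CTSL among others, rose from 5.17 ± 1.49 to 14.6 ± 6.27 RPKM (log2 fold change 1.43, limma adjusted p = 0.00032) and by 1.66 against OVA. CST3, the abundant secreted cystatin, was at 334 ± 66.5 RPKM in EAE and 367 ± 35.7 RPKM in Ctrl mice (limma adjusted p = 0.392) and CSTB, an intracellular one, at 21.0 ± 4.55 and 27.2 ± 7.77 RPKM (limma adjusted p = 0.18). CTLA2A, an inhibitor of CTSL-like proteases whose reads its near-identical copy CTLA2B could share, was called lower against OVA mice only among the day 14 EAE comparisons (-0.61, limma adjusted p = 0.00772; -0.05 against Ctrl), and that call was lost without OVA replicate 5 or EAE replicate 2 or 4. Of the other calpains and small subunits, 2 of 12 passed the filter, and CAPNS1 was the 1 gene called, against OVA.

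Lysosomal hydrolases other than cathepsins were divided: of 17 tested among 20, 1 was called higher and 5 lower against Ctrl, with a list median of -0.33 against 0.11 over all genes tested. GAA, the acid glucosidase that degrades lysosomal glycogen, rose from 46.9 ± 1.75 to 97.3 ± 23.4 RPKM (log2 fold change 1.02, limma adjusted p = 4.41e-05) and by 1.17 against OVA. MAN2B1, an alpha-mannosidase (-0.88), NPC2, which carries cholesterol out of the lysosome (-0.79), PSAP, the precursor of the saposins (-0.78), and LIPA, the acid lipase (-0.63), were called lower against Ctrl, with limma adjusted p of 0.00025 to 0.00088, and the call of LIPA was lost without EAE replicate 1. Of these only MAN2B1 was also called against OVA, together with ARSB, a sulfatase (-0.63), whose call was lost in 6 of 10 fits with 1 mouse left out (without OVA replicate 2, 3 or 4 or EAE replicate 1, 2 or 5). PSAP (-0.58) and NPC2 (-0.56) passed the adjusted p against OVA just under the fold threshold (limma adjusted p = 0.00282 and 0.00588). Both were called against OVA under median-of-ratios scaling (-0.63 and -0.61).

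Genes of the lysosomal membrane, of sorting to the lysosome and of their regulation held no lower call, and 5 of 16 were called higher against Ctrl and 4 of 15 against OVA, beside 14.6% and 11.0% of all genes. IGF2R, the receptor that carries mannose 6-phosphate tagged hydrolases, was at 19.2 ± 5.60 RPKM in EAE and 8.90 ± 3.42 RPKM in Ctrl mice (log2 fold change 1.17, limma adjusted p = 0.0103), and SORT1, an alternative sorting receptor, at 20.4 ± 2.48 and 11.1 ± 2.07 RPKM (0.89, limma adjusted p = 0.00051). NPC1, the cholesterol exporter (0.85), SCARB2, the carrier of glucocerebrosidase (0.74), and CD63, a tetraspanin (0.64), were called as well. CD63 lost its call without Ctrl replicate 5 or EAE replicate 1, and against OVA the calls of IGF2R and NPC1 were each lost in 5 of 10 fits (without OVA replicate 1 or 5 or EAE replicate 2 or 5 for both, and without EAE replicate 4 for IGF2R or 3 for NPC1). TFEB itself was at 35.03 ± 6.24 RPKM in EAE, 44.4 ± 7.80 RPKM in Ctrl and 36.2 ± 8.39 RPKM in OVA mice, with log2 fold changes of -0.34 and -0.04 (limma adjusted p = 0.0914 and 0.879), and against Ctrl it passed the adjusted p alone with quantile normalization (0.0173) and with all 30 mice in 1 model (0.0277). Of the 16 genes of the vacuolar ATPase, the proton pump of the lysosome, 3 were called higher against Ctrl and 1 against OVA, beside the same 14.6% and 11.0% of all genes. With 1 mouse left out, 1 to 3 of them were called higher in each comparison. ATP6V1A, a catalytic subunit, rose from 7.22 ± 1.07 to 13.5 ± 3.16 RPKM (0.88, limma adjusted p = 0.00014), while ATP6V0A2 (0.94) was lost without Ctrl replicate 1 or EAE replicate 2 and ATP6AP2 (0.62) without Ctrl replicate 1 or EAE replicate 1 or 2. CACGTG was in the promoters of 15 of the 43 genes of these lysosomal lists that were tested against Ctrl and had a promoter entry, and 3 of the 15 (IGF2R, GAA and ATP6V1A) and 3 of the other 28 were called higher (3 of 15 and 1 of 27 against OVA). Called lower were 0 of the 15 and 4 of the 28 against Ctrl, and 0 of 15 and 2 of 27 against OVA. The median log2 fold change against Ctrl was -0.09 in the genes with CACGTG and -0.07 in those without, and against OVA 0.04 and 0.08.

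Of 10 known substrates of calpains in muscle, 6 were called higher against Ctrl and 3 against OVA, beside 14.6% and 11.0% of all genes. None was called lower, and the list medians were 0.72 and 0.64 against 0.11 over all genes tested in each comparison. FLNC, the muscle filamin, was at 197 ± 54.1 RPKM in EAE and 76.1 ± 14.7 RPKM in Ctrl mice (1.36, limma adjusted p = 0.00035). DYSF, the gene of dysferlin, rose from 19.3 ± 3.00 to 48.4 ± 8.61 RPKM (1.32, limma adjusted p = 8.56e-06), in a strain with a mutation in this gene. Dystrophin (DMD, 1.51) and nebulin (NEB, 1.12) were called against Ctrl, and desmin (DES) in both comparisons (0.72 and 0.96). With 1 mouse left out, 3 to 8 of the substrates were called against OVA, with DMD gained without OVA replicate 2 or 3 or EAE replicate 1 and NEB without OVA replicate 2 or EAE replicate 1. DMD and NEB were also gained, for 5 substrates in all, with all 30 mice in 1 model (limma adjusted p = 0.0188 and 0.0268) and with the replicate number as a block (limma adjusted p = 0.0183 and 0.0201). These are levels of RNA, and cleavage of the proteins was not measured.

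**Figure D5:**
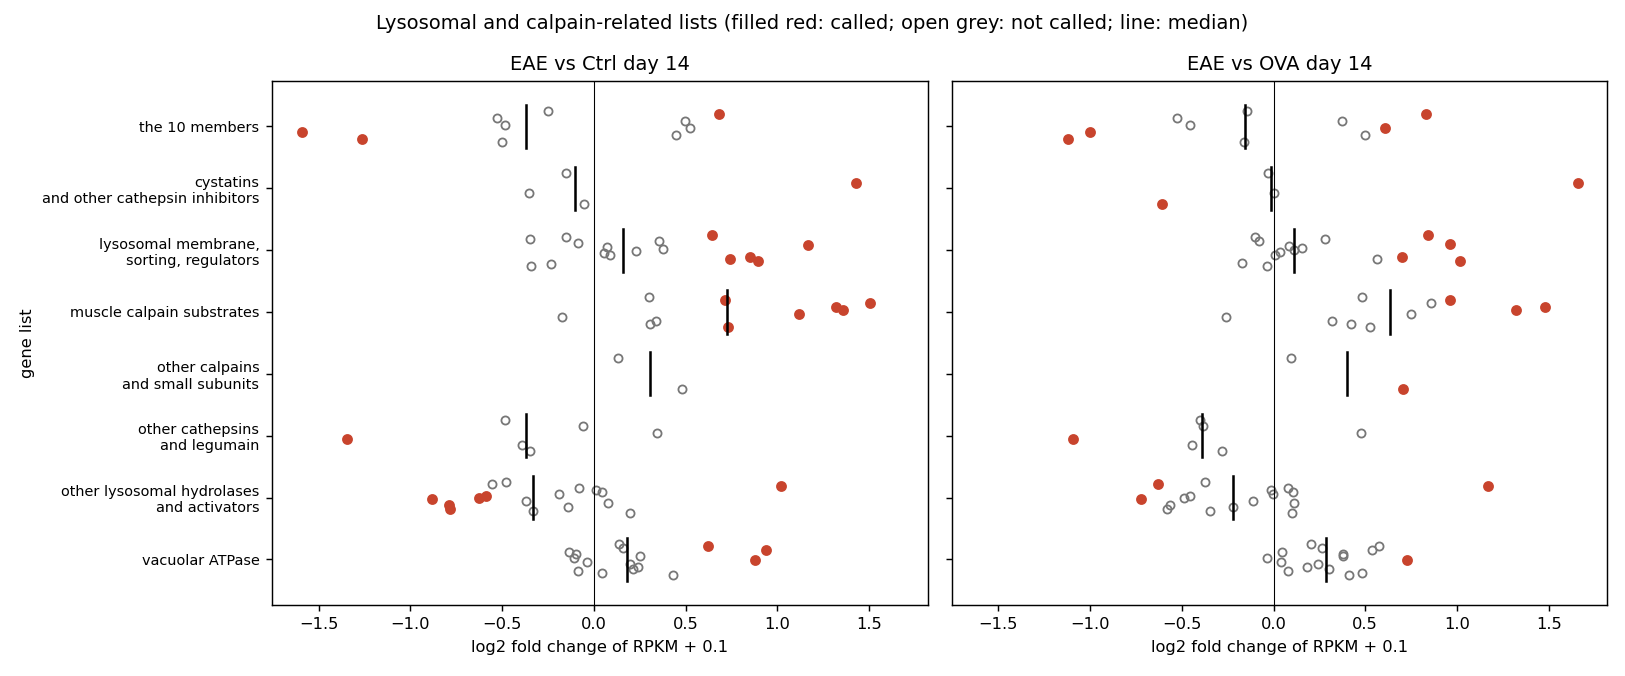
Log2 fold change of RPKM + 0.1 (horizontal axis) of each tested gene of the 10 members and of 7 lists (rows) in EAE vs Ctrl (left) and EAE vs OVA mice (right) of day 14, with called genes in filled red, other genes in open grey and the median of each row as a black line. The medians of the calpain substrates, 0.72 and 0.64, lie furthest to the right of the 7 lists in each panel, and those of the other cathepsins, -0.37 and -0.39, furthest to the left.

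For each of the 10 genes the 3 genes with the most similar pattern were found, by Pearson's r of log2(RPKM + 0.1) over the 30 mice among 8443 genes, as a description. CTSB was most like IL10RB, PLTP and C1QB (r = 0.93 each) and CTSS like CXCL16, NCF1 and C1QB (0.90 to 0.94). CTSK was most like LOXL2, SDC2 and COL3A1 (0.92 to 0.93), but over the 25 mice without the EAE mice of day 14 these were 0.60 to 0.76. CTSD was most like GSTP1, PRDX6 and CRELD1 (0.96 each), CTSL like PSMD7, GPS2 and DKC1 (0.86 to 0.89) and CTSZ like PRKCSH, FCGRT and the lysosomal HEXA (0.89 to 0.90). CAPN2 was most like NOMO1, COPB2 and DYSF (0.95 each), CAPN3 like TPPP, EML1 and ASB14 (0.94 to 0.96), and CAST like WDR37, ATG13 and USP15 (0.93 each). CAPN1 had the least similar neighbours (PLPP7, HAL and RAB3IL1, 0.78 to 0.81), and these were 0.44 to 0.62 over the 25 mice. For the other 8 genes the values over the 25 mice were 0.71 to 0.80 (CTSL), 0.77 to 0.83 (CTSB), 0.84 to 0.90 (CTSD), 0.74 to 0.81 (CTSS), 0.89 to 0.92 (CTSZ), 0.80 to 0.87 (CAPN2), 0.86 to 0.89 (CAPN3) and 0.92 to 0.94 (CAST). Among the 10 genes themselves, CTSD and CAPN3 had r = -0.88 over the 30 mice and -0.69 over the 25, and CTSB and CTSS r = 0.87 and 0.60.

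The effect of the adjuvant with ovalbumin was read from OVA and Ctrl mice of day 14. By limma, 0 of the 10 genes were called in either direction, beside 0.0944% of 8471 genes called higher and 0.0472% lower, and CTSK alone had an unadjusted p below 0.05 (log2 fold change -0.59, 95% interval -0.92 to -0.26, limma adjusted p = 0.215). With all 30 mice in 1 model CTSK was called lower at the same fold change (limma adjusted p = 0.0471). The fibroblast markers had a list median of -0.38 in this comparison, with 0 of 11 called by limma and 6 at an unadjusted p below 0.05. The other log2 fold changes were -0.34 (CTSZ) to 0.12 (CAST).

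On day 40 the comparisons ask whether differences remained in remission. By limma, 0 of the 10 genes were called in any of the 3 comparisons. For EAE vs Ctrl the background was 0.0690% of 8691 genes called higher and 0.391% lower, for EAE vs OVA it was 0.0349% and 0.174% of 8598 genes, and for OVA vs Ctrl it was 0.00% and 0.00% of 8706 genes. An unadjusted p below 0.05 was reached by 2 genes against Ctrl, by 2 against OVA and by CTSK alone between OVA and Ctrl mice (-0.34 on the log2 scale, limma adjusted p = 0.999). The log2 fold changes of the 10 genes ran from -0.26 to 0.00 in EAE vs Ctrl and from -0.27 to 0.13 in EAE vs OVA.

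The genes with a low unadjusted p in the EAE comparisons of day 40 were CAPN2 and CAPN3. CAPN2 was at 26.4, 23.7, 26.6, 29.3 and 27.6 RPKM in EAE mice, 30.9, 30.7, 31.9, 31.9 and 31.3 RPKM in OVA mice and 30.4, 30.3, 30.7, 28.0 and 33.5 RPKM in Ctrl mice. CAPN3 was at 37.4, 45.4, 41.5, 45.6 and 41.9 RPKM in EAE mice, 48.2, 50.6, 50.01, 51.5 and 48.0 RPKM in OVA mice and 50.01, 49.8, 52.5, 41.5 and 44.3 RPKM in Ctrl mice. For both genes all EAE mice were below all OVA mice, as for 4.90% of all genes, and they overlapped the Ctrl mice. The log2 fold changes against OVA were -0.23 for CAPN2 (95% interval -0.36 to -0.10, limma adjusted p = 0.0913) and -0.23 for CAPN3 (95% interval -0.38 to -0.08, limma adjusted p = 0.134). Against Ctrl they were -0.19 and -0.17 (limma adjusted p = 0.0799 and 0.149), and without Ctrl replicate 4 these adjusted p were 0.0251 and 0.0388, still under the fold threshold.

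The cathepsins of day 40 overlapped between all 3 groups. CTSK was at 20.9, 18.3, 18.4, 14.3 and 18.0 RPKM in EAE mice, 14.0, 17.7, 15.4, 16.3 and 18.9 RPKM in OVA mice and 24.9, 19.2, 16.7, 19.7 and 24.3 RPKM in Ctrl mice, and CTSS ranged from 27.8 to 45.5 RPKM in EAE mice and from 29.6 to 78.9 RPKM in Ctrl mice. CTSD ranged from 326 to 417 RPKM in EAE, 365 to 411 RPKM in OVA and 324 to 441 RPKM in Ctrl mice, CTSB from 109 to 130.1, 119 to 129 and 108 to 139 RPKM and CTSL from 108 to 147, 116 to 137 and 99.9 to 179 RPKM in the same order. CTSZ lay at 31.2 to 49.0, 37.8 to 46.1 and 29.9 to 47.3 RPKM. CAPN1 (34.2 to 39.1, 36.2 to 40.4 and 34.6 to 39.8 RPKM) and CAST (29.7 to 37.7, 31.6 to 35.3 and 31.5 to 40.9 RPKM) overlapped in the same way. Among the pathway lists, 0 of 71 tested genes were called by limma in each comparison of day 40, with 20, 19 and 0 at an unadjusted p below 0.05 when EAE was set against Ctrl, EAE against OVA and OVA against Ctrl. On day 14 the same held for 0 of 71 between OVA and Ctrl mice, with 3 at that p. By adjusted p alone, 1 lysosomal hydrolase, 1 calpain substrate and NPC1 were lower in EAE than in Ctrl mice of day 40, beside 2.35% of all genes. NPC1, which was called higher on day 14, had a log2 fold change of -0.49 there (limma adjusted p = 0.0301).

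Whether the EAE effect itself differed between the days was tested as the EAE difference of day 40 minus that of day 14 in a limma model of all 30 mice. Relative to Ctrl, 7 of the 10 genes passed an adjusted p of 0.05: the change was positive for CTSB, CTSK and CTSS, beside 16.5% of 9013 genes, and negative for CTSL, CTSD, CAPN2 and CAST, beside 32.1%. Relative to OVA, 5 passed, CTSB and CTSK with a positive change (11.1% of 8935 genes) and CTSL, CTSD and CAPN2 with a negative one (24.0%). In each of these the day 14 difference was larger than that of day 40. For CAST the Ctrl mean differed between the days as well, at 27.4 RPKM on day 14 and 34.5 RPKM on day 40. The EAE means of CAST were 38.0 and 33.6 RPKM. CTSK had the largest change, 1.38 relative to Ctrl (SE 0.20, limma adjusted p = 6.84e-06) and 1.12 relative to OVA (SE 0.20, limma adjusted p = 0.00011). CAPN2 changed by -0.88 and -1.06 (SE 0.14 each, limma adjusted p = 1.59e-05 and 1.63e-06), and CTSD by -0.57 and -0.70 (limma adjusted p = 0.00382 and 0.00102). The median change of all genes tested was -0.15 relative to Ctrl and -0.16 relative to OVA, and median-of-ratios scaling brought it to -0.02 and -0.04. Under that scaling CTSL no longer passed relative to Ctrl (-0.37, limma adjusted p = 0.147) or OVA (-0.39, limma adjusted p = 0.160), whereas CTSZ, CAPN1 and CAPN3 passed relative to Ctrl and CTSS relative to OVA. CTSL also depended on single mice, and it no longer passed relative to Ctrl in 8 of 20 fits with 1 mouse left out (without Ctrl replicate 4 or 5 or EAE replicate 1, 2 or 5 of day 14, or Ctrl replicate 5 or EAE replicate 2 or 4 of day 40) and relative to OVA in 13 of 20 (without OVA replicate 2, 3 or 4 or EAE replicate 1, 2 or 5 of day 14, or OVA replicate 1, 2, 3 or 4 or EAE replicate 2, 4 or 5 of day 40). The other genes that passed did so in each of the 20 fits. Among those that did not, CTSZ passed relative to Ctrl in 8 of 20 fits, CAPN1 in 4 and CAPN3 in 1, and relative to OVA CTSS passed in 3 and CAST in 1.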

How the data were processed

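EDL muscle of 30 mice, 5 in each of 6 groups, was measured by RNA-Seq of poly(A) RNA from directional libraries. The authors mapped paired-end reads to build mm10 with Subread, used featureCounts to assign them to RefSeq genes and gave each gene an RPKM. The deposited table was read as log2 values of RPKM plus 1, with 0.0001 where a gene had no read (25.8% of values). The added 1 was not tested on its own. The scale was read from the values: read as log2, RPKM times exon length in kb summed to 1110000 to 1140000 per mouse, and read as natural logarithms to 20900000 to 31000000. Values were converted back to RPKM. No read counts were used, so the authors' count test was replaced by limma 3.58.1 (R 4.3.3) on log2(RPKM + 0.1), with the variance trended on the mean and 1 model for the 15 mice of each day. Fold changes are on that scale. The symbols of 27 genes, none of them named here, read as dates. Depth was estimated from steps of 1 read in genes of low level, of which 74.9 to 81.1% of values per mouse came within 0.1 of a whole read. The depth was chosen to bring such values near whole reads, so this share is no separate check of it.

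Named genes were the 10 members, up to 4 called genes in each direction per list on day 14, CAPNS1, CST3, CSTB and TFEB, and the 3 genes most like each member. Members, lists and motifs were chosen with earlier results of these data known. The model was also run on simulated data, the outcome of which is not reported here. Alternatives were other pseudocounts, filters, scalings, samples in the fit, variance models and each mouse left out. The labels name separate mice, and no sequencing batch is given in the sources used here. Tables and figures were made with Python 3.11.15 and pandas 2.3.3.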

Additional observations from a re-analysis of the deposited data

Results flagged for a closer look

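The level of CAST in EAE replicate 3 of day 14, 33.9 RPKM, lay far below those of the other 4 EAE mice of that day, and its gap to the nearest of them was 0.831 of the range of the group, above the critical value of 0.71 for 5 samples. It was the 1 such value among 60 groups of 5 mice examined, and chance flags about 1 in 20 groups. The same mouse had the deepest library (about 31700000 reads), the highest CAPN3, CTSS and CTSB of the EAE mice of day 14 and the highest macrophage sum of them, 358 RPKM. The part of these in the value was not tested.

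The change of the EAE effect between the days passed the test for 12 values. The change is the day 40 difference minus the day 14 difference, on the log2 scale. Relative to Ctrl it was -0.50 for CTSL, 0.44 for CTSB, -0.57 for CTSD, 1.38 for CTSK, 1.00 for CTSS, -0.88 for CAPN2 and -0.53 for CAST, with limma adjusted p between 6.84e-06 (CTSK) and 0.033 (CTSL). Relative to OVA it was -0.50 for CTSL, 0.37 for CTSB, -0.70 for CTSD, 1.12 for CTSK and -1.06 for CAPN2, with limma adjusted p between 1.63e-06 (CAPN2) and 0.0415 (CTSL). Both sets share the EAE mice. The direction of the 12 values was the same in every setting tried, while CTSL lost its call under several of them and CAST relative to Ctrl under quantile normalization.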

How the results depend on the processing

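No called value of the 10 genes changed direction under any setting. Of 760 member values under other settings, 728 stayed on their side of the thresholds, 8 lost and 24 gained a call, and of 1000 with 1 mouse left out 948 stayed, 26 lost and 26 gained one, while 10 and 42 values that were not called changed sign. The 3 genes called in EAE vs Ctrl of day 14 became 5 with quantile normalization (CTSD, CTSZ and CAPN3 gained, CAPN2 lost) and 10 with no fold threshold, the 4 of EAE vs OVA became 7 with no fold threshold, and the 0 of OVA vs Ctrl became 1 with all 30 mice in the model. Leaving out 1 mouse gave 3 to 5 and 3 to 6 called genes in the EAE comparisons of day 14, 0 to 0 in the other 4 comparisons, and 6 to 9 and 4 to 6 genes with a changed effect relative to Ctrl and OVA. The causes were not tested. By adjusted p alone, on day 14, CAST vs Ctrl was lost with quantile normalization (limma adjusted p = 0.0819), CAPN1 vs Ctrl (0.0777) and CAPN3 vs OVA (0.0511) were lost with only the compared groups in the fit, and CAST vs OVA was gained with only those groups (0.0435), with all 30 mice (0.0154) and with the replicate block (0.0448).

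The replicate numbers are shared by the groups, but the labels tie them to no batch. Deviations of same-numbered mice from their group means had r of -0.73 to 0.70, with 1, 3 and 3 of 5 pairs above 0.1 in the comparisons of EAE with Ctrl, of EAE with OVA and of OVA with Ctrl mice of day 14 and 0, 0 and 1 on day 40, and 2, 3, 1, 0, 0 and 1 of 10 mice correlated best with their own number. In the same order, the mice of replicate 1 on day 14 had r = 0.51, 0.70 and 0.61, and those of replicate 5 had -0.12, 0.03 and -0.73. What same-numbered mice share beyond the number was not tested. With the number as a replicate block the called genes were 3, 4 and 0 on day 14 and 0 in each comparison of day 40, and 8 and 5 genes had a changed effect, CTSZ being gained relative to Ctrl. The calpain substrates called against OVA on day 14 went from 3 to 5 with the block.

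Depth limits CTSK in EAE mice of day 14 most, at about 140 reads in the lowest mouse. Read counts were not used here, so that number is an estimate.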

Other observations

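Neutrophil markers, which were called higher in EAE than in Ctrl mice, were called higher in OVA than in Ctrl mice of day 14 too, 4 of the 4 tested, with sums of 65.0 to 229.8 RPKM in OVA and 3.96 to 10.1 RPKM in Ctrl mice, although 0 of the 10 protease genes were called in that comparison by limma and 1, CTSK, had an unadjusted p below 0.05. Among the 10 genes, CTSZ and CAST had r = -0.78 over the 30 mice and -0.78 over the 25 mice without the EAE mice of day 14, whereas CTSK and CAPN2 had r = -0.73 over 30 mice and 0.10 over 25. These are descriptions over mice that share groups. The ratio of CAPN3 to CAPN2 was 0.613 ± 0.206 in EAE mice of day 14 (SD, n = 5) and 1.36 ± 0.0486 in Ctrl mice, and its highest value in those EAE mice, 0.917, was below the lowest of the other 25 mice, 1.301. It restates the levels of CAPN3 and CAPN2 and is no separate result.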
